A study of Mus musculus with 6 samples.

Results

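Ribosome biogenesis and RNA polymerase I genes were followed through the differentiation of 3T3-L1 cells, mouse embryonic fibroblasts that can be driven to become adipocytes, the cells that store fat. The set holds 45 genes of 43760 rows in the count table, chosen by name with no measured value in the rule, and each name was found in the table. This set and the gene lists used below were nonetheless chosen with earlier results of these data known. RNA sequencing covered 3 libraries of wild-type 3T3-L1 cells at day 7, after an adipogenic cocktail of IBMX, insulin, dexamethasone and roziglitazone (the labels' spelling of rosiglitazone), and 3 libraries of wild-type cells at day 0, harvested without differentiation. The days differ in differentiation, in drug exposure and in culture time at once, and these cannot be told apart. Since no label states that the libraries of a day are separate cultures, the p-values reflect the spread among these samples alone, and that spread may be technical.

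RNA polymerase I transcribes the repeated ribosomal RNA genes in the nucleolus into a long precursor. Guide RNAs in small nucleolar ribonucleoproteins (snoRNPs) direct its chemical modification, with box C/D particles adding methyl groups to ribose and box H/ACA particles turning uridine into pseudouridine. The small subunit processome then folds and cuts the precursor towards the 40S subunit, and a separate set of factors assembles the 60S subunit. Growing cells make ribosomes at a high rate, and the transcription factor Myc is known to drive many of the genes involved.

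Total estimated counts ranged from 7655822 to 16987076 at day 7 and from 10805962 to 14132016 at day 0. All samples are labelled as fibroblasts, yet 10 of 10 adipocyte markers rose, with summed levels of 4583 to 7601 CPM (counts scaled to a common library total, with TMM factors) at day 7 and 47.6 to 52.7 CPM at day 0. Among them, the lipid droplet gene Cidec had 1055, 367 and 784 CPM at day 7 and no counts at day 0. Slc2a4, the insulin-responsive glucose transporter, had no counts at day 0 either, and the transcription factor Cebpa had 164, 128 and 228 CPM at day 7 and 16.1, 14.4 and 11.5 CPM at day 0. All 7 preadipocyte markers tested fell, with summed levels of 659 to 1244 CPM at day 7 and 4415 to 4981 CPM at day 0, and Cd34 had too few counts to test. The collagen gene Col1a1 had 514, 965 and 699 CPM at day 7 and 2089, 2187 and 1723 CPM at day 0, and Wnt6, a secreted signal, had 2, 2 and 3 counts in the day 7 libraries and 93, 134 and 157 in the day 0 libraries. All 13 cell cycle genes listed fell as well, with summed levels of 100.2 to 152 CPM at day 7 and 634 to 701 CPM at day 0. The third day 7 column stood apart from the other day 7 libraries on the second axis of a multidimensional scaling plot, at -1.81 against 0.62 and 0.99. In bulk RNA, fewer cells of a type and less RNA per cell cannot be told apart.

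Ribosome biogenesis genes moved by small amounts and in both directions. All 45 passed the filter on low counts, and 19 of them (42.2%) differed between the days by the quasi-likelihood test of edgeR at a threshold of 0.05 on the Benjamini-Hochberg adjusted p, against 60.0% of the 12354 genes tested. Of the 45, 10 were higher at day 7, where 30.8% of all genes were, and 9 were lower, where 29.2% were. The remaining 26 did not pass. The libraries of both days did not overlap for 26 of the 45, against 68.3% of all genes. A change of at least 2-fold that passed the test was seen for Rcl1 and Nop10, 2 of the 45, against 33.7% of all genes, and 34 lay within 1.5-fold, as did 5687 of the 12354. The median log2 fold change was 0.23 for the 45 genes and 0.02 for all genes tested, and the median size of a log2 fold change in either direction was 0.33 and 0.66. With libraries scaled by total counts alone, 4 rose and 9 fell, and the median of all genes shifted to -0.21. The median of the 45 relative to that of all genes was then 0.19. It was 0.02 over the 35 members left by a filter of 10 CPM, 0.09 without the second day 0 replicate and 0.10 without the second day 7 column. With either library left out the median of the 45 itself was 0.11. Without the third day 7 column, 14 rose and 8 fell. Leaving out the first or the second day 0 replicate left 6 that rose each time, and without the third day 0 replicate 4 fell.

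The summed level of the 45 genes was 1416, 1476 and 1260 CPM in the day 7 libraries and 1410, 1359 and 1455 CPM in the day 0 libraries. These ranges overlapped, and the ratio of the means was 0.98. Without Ncl and Npm1, the most abundant members, the means were 1032 CPM at day 7 and 969 CPM at day 0, a ratio of 1.06. The sums of the role groups went in different directions. The ratio of day 7 over day 0 was 1.41 for the box H/ACA proteins, 1.21 for the small subunit factors, 1.13 for RNA polymerase I and its factors, 1.04 for the 60S factors, 0.83 for the nucleolar scaffold proteins and 0.69 for the box C/D proteins. Several of these sums rested on 1 gene. Nop10 made up 12.9 of the 16.2 CPM by which the H/ACA sum was higher at day 7, Rrn3 29.6 of 30.3 CPM for RNA polymerase I, and Rcl1 28.2 of 50.2 CPM for the small subunit. For the scaffold proteins, Npm1 was -90.7 CPM of a difference of -100.4 CPM. The plot of log2 fold changes by role shows this spread.

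**Figure D1:**
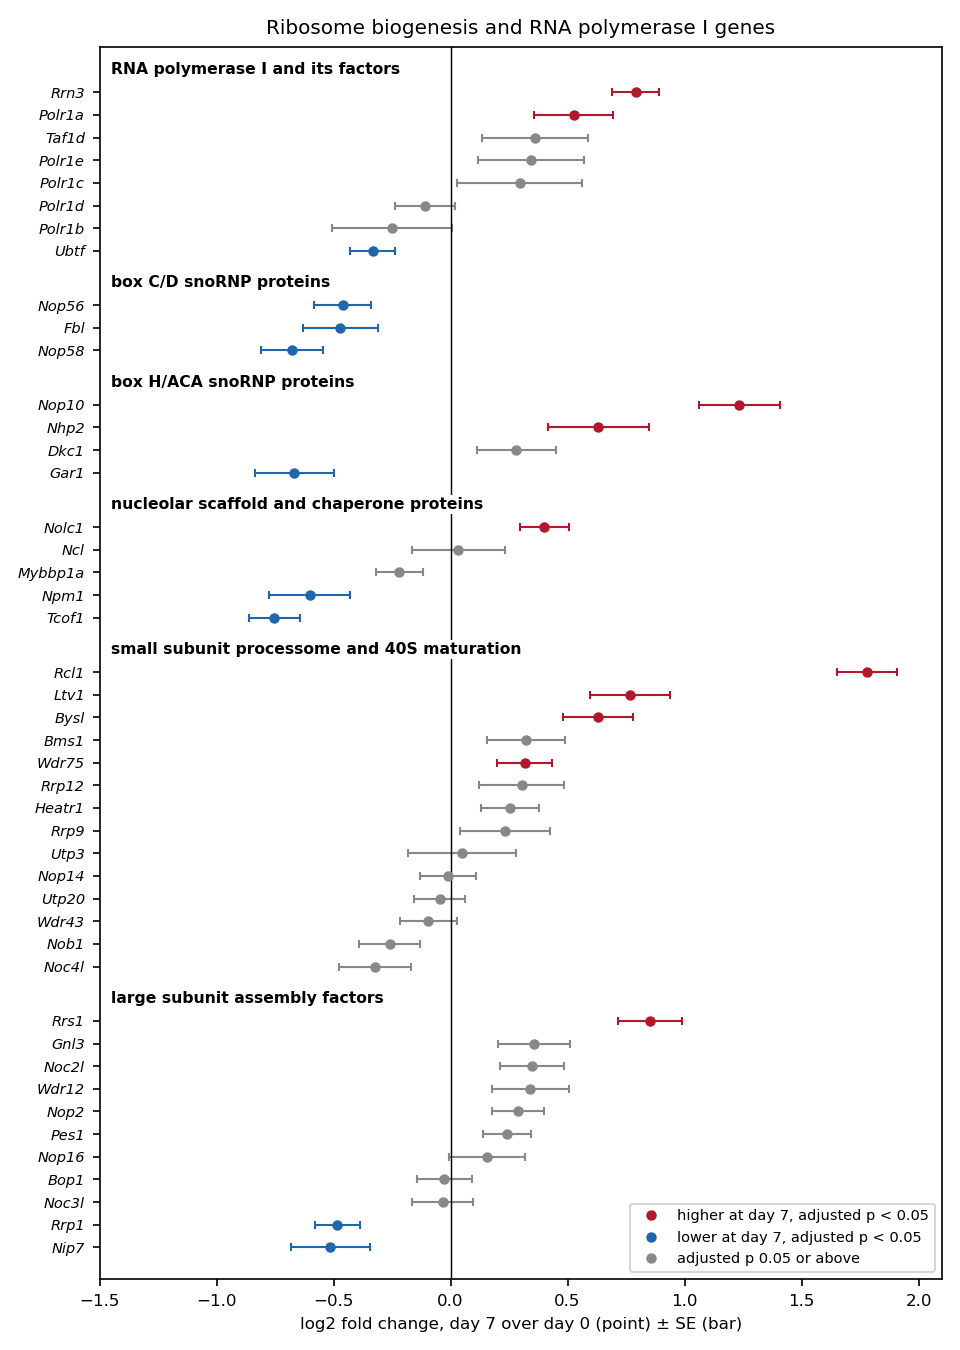
Log2 fold change of day 7 over day 0 (x axis) for the 45 ribosome biogenesis and RNA polymerase I genes (y axis, ordered by role), with bars of 1 standard error from edgeR and colour by call. All 3 box C/D genes lie left of 0, while Rcl1 at 1.78 and Nop10 at 1.23 lie farthest to the right.

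As background to the counts in each role group, 30.8% of all genes rose and 29.2% fell. Of the 8 genes of RNA polymerase I and its factors, 2 rose, 1 fell and 5 did not pass, with a median log2 fold change of 0.32. Rrn3, the initiation factor that joins the polymerase to its promoter-bound partners, stood at 69.1, 65.4 and 75.5 CPM at day 7 and at 38.7, 40.02 and 42.5 CPM at day 0. All day 7 libraries lay above all day 0 libraries. The log2 fold change of Rrn3 was 0.79 ± 0.10 (SE, edgeR adjusted p = 0.000329), and the gene lies on the plus strand at chr16:13780708-13814839 of GRCm38. Polr1a, the largest and catalytic subunit, had 49.99, 48.1 and 72.5 CPM at day 7 and 43.3, 37.7 and 37.2 CPM at day 0. The third day 7 column was the highest, and the days did not overlap. Its log2 fold change was 0.53 ± 0.17 (adjusted p = 0.0289), and the adjusted p rose above 0.05, to 0.103 at most, whenever a day 0 replicate was left out. With total-count scaling the Polr1a value was 0.31 (adjusted p = 0.268).

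Ubtf, the HMG-box protein that keeps ribosomal RNA genes in an open state, moved the other way, with 79.2, 72.1 and 72.4 CPM at day 7 and 93.8, 91.2 and 96.8 CPM at day 0. The highest day 7 library was below the lowest day 0 library. Its log2 fold change was -0.33 ± 0.10 (adjusted p = 0.0183), a call that was also lost without any one day 0 replicate (adjusted p up to 0.0670). Polr1b, the second-largest subunit, had 8.84, 4.27 and 8.01 CPM at day 7 and 8.51, 8.08 and 8.76 CPM at day 0. The second day 7 column was low and the others lay near the day 0 levels, and the difference did not pass (log2 fold change -0.25 ± 0.26, adjusted p = 0.426). The others that did not pass ranged from -0.11 for Polr1d, shared with RNA polymerase III and with fractional counts in 4 libraries, to 0.36 for Taf1d, a subunit of the promoter selectivity factor. Taf1d and Polr1c, also shared with RNA polymerase III, were lowest among day 7 libraries in the third column. Without that column both passed, at 0.56 each (adjusted p = 0.0194 for Taf1d and 0.0102 for Polr1c).

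The box C/D group was the one in which every gene measured fell, 3 of 3, with a median log2 fold change of -0.47. Nop58, a core protein that binds the guide RNA, had 21.1, 24.2 and 17.9 CPM at day 7 and 33.2, 32.0 and 36.2 CPM at day 0. No day 7 library reached a day 0 level, and the log2 fold change was -0.68 ± 0.13 (adjusted p = 0.00306). Nop56, its partner in the particle, had 35.3, 31.4 and 30.1 CPM at day 7 and 45.3, 39.1 and 49.5 CPM at day 0. The days again stood apart, at -0.46 ± 0.12 (adjusted p = 0.0125). Fbl, the methyltransferase of the particle, was at 10.03, 10.8 and 10.3 CPM at day 7 and 13.2, 12.7 and 17.3 CPM at day 0. The third day 0 replicate was the highest, and the log2 fold change was -0.47 ± 0.16 (adjusted p = 0.0333). The Fbl call was lost in 4 of 6 fits with a library left out (adjusted p up to 0.114), and that of Nop56 without the third day 0 replicate (adjusted p = 0.0539). Fbl and Nop56 had fractional counts in 5 libraries each, so reads shared with close copies may enter their values.

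Box H/ACA genes did not move together: 2 rose, 1 fell and 1 did not pass of 4. Nop10, the smallest protein of the particle, had 27.1, 22.0 and 18.2 CPM at day 7 and 9.999, 10.1 and 8.59 CPM at day 0. The lowest day 7 library was well above the highest day 0 library, and the log2 fold change was 1.23 ± 0.17 (adjusted p = 0.000589). Nhp2, which contacts Nop10 in the particle, had 10.9, 10.99 and 6.79 CPM at day 7 and 6.14, 5.59 and 7.01 CPM at day 0. The third day 7 column fell inside the day 0 range, so the days overlapped, although the gene passed at 0.63 ± 0.22 (adjusted p = 0.0348). This call was lost in 5 of 6 fits with a library left out (adjusted p up to 0.131) and with upper-quartile or total-count scaling, and an exonic overlap of 44 bases with Rmnd5b on the other strand touches it.

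Gar1, which binds the pseudouridine synthase, moved the other way, with 4.70, 5.80 and 5.84 CPM at day 7 and 9.03, 7.58 and 9.18 CPM at day 0. The days did not overlap, at a log2 fold change of -0.67 ± 0.17 (adjusted p = 0.010004). Dkc1, the pseudouridine synthase itself, had 15.8, 21.8 and 15.8 CPM at day 7 and 13.5, 13.9 and 16.4 CPM at day 0. These ranges overlapped and Dkc1 did not pass (0.28 ± 0.17, adjusted p = 0.187). The summed level of the H/ACA genes was compared with that of the C/D members, which leave out Nhp2l1. It was 0.881, 0.911 and 0.798 of the C/D level in the day 7 libraries, and 0.422, 0.444 and 0.4003 in the day 0 libraries. The ratio was thus higher in each day 7 library than in any day 0 library.

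**Figure D2:**
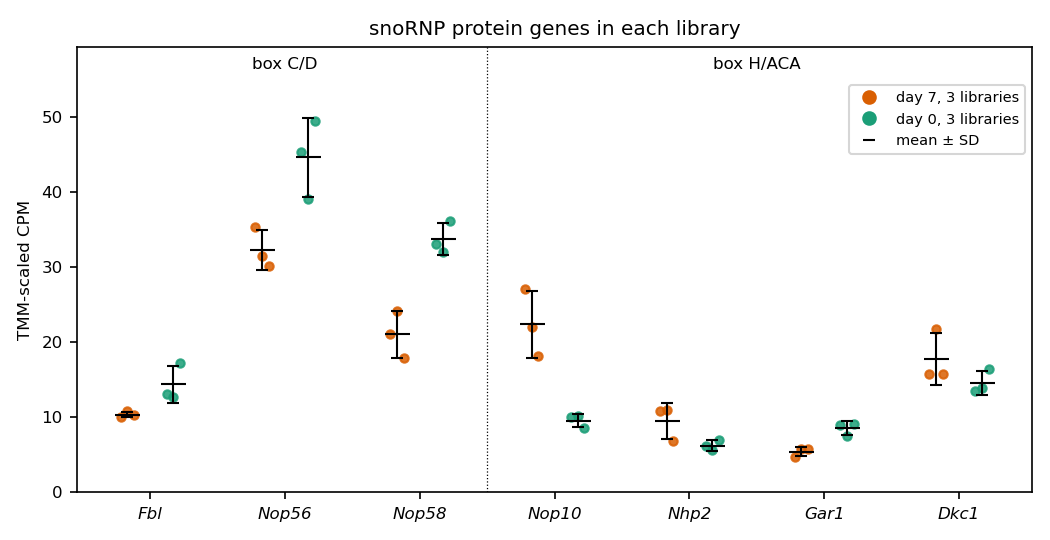
Levels of the 7 snoRNP protein genes in each library (TMM-scaled CPM, y axis), with day 7 left of day 0 for each gene and bars giving mean ± SD of 3 libraries. Fbl, Nop56, Nop58 and Gar1 were lower at day 7 and Nop10 was higher, with no overlap, while Nhp2 and Dkc1 overlapped.

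Promoter sequence was set beside these opposite moves. RefSeq (GRCm38.p6) gave the 250 bases before the RefSeq start for 39 of the 45 genes. For 36 of the 39, the bases shortly after that start occurred somewhere in a GENCODE M21 transcript of the gene. This match did not compare start positions. By position, 17 of the windows lay in whole or in part within the gene as GENCODE M21 annotates it. For 3 genes with several windows the first was used for this count. Npm1, Bop1, Rrp12, Rrs1, Fbl and Tcof1 had no entry. Searched on both strands, the Myc-type E-box CACGTG, which reads alike on either strand, was found in 2 of 39 (5.13%), Rrn3 and Nop2, against 6.02% of the 32851 windows of this length and 9.99% of 8889 tested genes with a window. The ETS-family core CCGGAAG was found in 10 of 39 (25.6%), against 6.91% of all windows. It was found for 7.83% of all genes with a window and for 16.5% of tested genes with a window. Shares of genes count a gene if any of its windows held the motif. By their letters these motifs cannot overlap each other. Of the 10 windows with the ETS core, 3 belonged to the 9 genes with a window that rose, 2 to the 6 that fell and 5 to the 24 that did not pass. In 8 of the 10 a copy lay outside the annotated gene, and of these 2 rose, 2 fell and 4 did not pass. The 4 windows printed lie wholly outside the annotated gene. They are Rrn3, which held 2 E-boxes, and the called genes with the ETS core in such a window. Of the latter, Nolc1 rose while Gar1 and Nip7 fell. Nhp2 and Ltv1 also rose and held the core, but their windows lay partly within the gene and are not printed. Ltv1 held 2 copies, both outside the annotated gene. Capitals mark the motifs, and each window is written 5′ to 3′ on the strand of its gene.
Rrn3 promoter, chr16:13780449-13780698, plus strand: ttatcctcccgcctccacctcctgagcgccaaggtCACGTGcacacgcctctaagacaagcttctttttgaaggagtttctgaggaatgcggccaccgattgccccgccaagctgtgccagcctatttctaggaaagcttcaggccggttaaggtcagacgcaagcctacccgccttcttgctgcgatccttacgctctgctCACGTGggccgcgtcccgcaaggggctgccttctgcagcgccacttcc
Nolc1 promoter, chr19:46075597-46075846, plus strand: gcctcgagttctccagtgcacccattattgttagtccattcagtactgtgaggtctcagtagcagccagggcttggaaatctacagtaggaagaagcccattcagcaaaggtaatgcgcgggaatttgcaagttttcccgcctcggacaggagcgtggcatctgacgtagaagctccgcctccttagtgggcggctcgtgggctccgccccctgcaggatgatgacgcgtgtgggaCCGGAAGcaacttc
Gar1 promoter, chr3:129831397-129831646, minus strand: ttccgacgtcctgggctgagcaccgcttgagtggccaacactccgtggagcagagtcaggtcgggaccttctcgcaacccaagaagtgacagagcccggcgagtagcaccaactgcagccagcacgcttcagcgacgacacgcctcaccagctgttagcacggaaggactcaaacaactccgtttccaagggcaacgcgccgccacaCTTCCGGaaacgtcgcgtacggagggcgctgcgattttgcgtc
Nip7 promoter, chr8:107056627-107056876, plus strand: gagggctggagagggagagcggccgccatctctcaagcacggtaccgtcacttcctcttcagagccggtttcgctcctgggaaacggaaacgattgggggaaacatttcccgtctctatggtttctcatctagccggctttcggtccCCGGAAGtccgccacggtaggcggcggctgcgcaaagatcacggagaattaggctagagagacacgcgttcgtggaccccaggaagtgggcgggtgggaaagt
The core was thus found both before genes that rose and before genes that fell. A match is a description of the letters and not of binding, which was not measured.

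Nucleolar scaffold and chaperone genes included 1 that rose, 2 that fell and 2 that did not pass of 5. Npm1, nucleophosmin, the histone and ribosomal protein chaperone of the outer nucleolus, had 191, 202 and 132 CPM at day 7 and 266, 259 and 272 CPM at day 0. All day 7 libraries lay below day 0, the third most so. Its log2 fold change was -0.60 ± 0.17 (adjusted p = 0.0177), which was lost without the first or the third day 0 replicate (adjusted p up to 0.0564), and its counts were fractional in all 6 libraries. Ncl, nucleolin, which binds the precursor RNA, had 178, 225 and 129 CPM at day 7 and 174, 164 and 182 CPM at day 0. The day 7 libraries spanned the whole day 0 range, and Ncl did not pass (0.03 ± 0.20, adjusted p = 0.893). The level of Npm1 was 1.07, 0.899 and 1.02 times that of Ncl at day 7 and 1.53, 1.58 and 1.49 times at day 0, per CPM and not per length.

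Tcof1, treacle, which recruits RNA polymerase I factors, had 16.4, 17.3 and 19.3 CPM at day 7 and 30.0, 30.1 and 28.9 CPM at day 0. The days were far apart relative to the spread within each, and the log2 fold change of -0.75 ± 0.11 (adjusted p = 0.000669) was the lowest of the 45. Nolc1, a chaperone of snoRNPs and a partner of treacle, had 42.0, 37.2 and 43.5 CPM at day 7 and 31.3, 29.1 and 32.5 CPM at day 0. Here the day 7 libraries were the higher ones, at 0.40 ± 0.10 (adjusted p = 0.0118). That call was lost without the first or the second day 0 replicate (adjusted p up to 0.0651) and with total-count scaling (0.18, adjusted p = 0.476). Mybbp1a, a nucleolar Myb-binding protein, did not pass at -0.22 ± 0.10 (adjusted p = 0.0957).

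The small subunit processome and 40S maturation factors were the group with the largest single change. Of 14 genes, 4 rose and 10 did not pass, with a median log2 fold change of 0.24. Rcl1, which in yeast works with Bms1 in an early cleavage of the precursor, had 34.1, 43.9 and 41.4 CPM at day 7 and 11.4, 11.4 and 11.8 CPM at day 0. Every day 7 library was far above the tight day 0 values, at 3.43-fold and a log2 fold change of 1.78 ± 0.13 (adjusted p = 2.46e-05). Bms1 itself, a GTPase, did not pass (0.32 ± 0.17, adjusted p = 0.131), but did without the first day 7 column (0.47, adjusted p = 0.0247). Ltv1, an assembly factor of the pre-40S particle, had 11.9, 11.8 and 12.8 CPM at day 7 and 5.61, 7.71 and 8.01 CPM at day 0. It rose by 0.77 ± 0.17 on the log2 scale (adjusted p = 0.00542), with no overlap. Bysl, bystin, of the same particle, had 18.4, 17.3 and 13.99 CPM at day 7 and 10.7, 10.004 and 11.6 CPM at day 0. These days did not overlap either, at 0.63 ± 0.15 (adjusted p = 0.00751).

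Wdr75, of the complex that starts the processome, passed narrowly at 0.32 ± 0.12 (adjusted p = 0.0470) and was lost in all 6 fits with a library left out (adjusted p up to 0.183). It also missed the threshold under 6 of the 8 other scalings, filters and tools. Bysl and Ltv1 missed it with total-count scaling, and 361 exonic bases of Bysl overlap Ccnd3 on the other strand. Heatr1, a large repeat protein of the same early complex as Wdr75, had 18.8, 16.4 and 16.0 CPM at day 7 and 13.6, 14.8 and 14.6 CPM at day 0. The days did not overlap, but the difference did not pass (0.26 ± 0.12, adjusted p = 0.112). Nob1, the endonuclease that makes the last cut of the small subunit RNA, had 11.3, 10.5 and 10.6 CPM at day 7 and 14.03, 12.8 and 12.01 CPM at day 0. It was lower in each day 7 library and did not pass either (-0.26 ± 0.13, adjusted p = 0.118). Noc4l, in yeast a partner of Nop14, was the lowest of the group, with 9.86, 7.53 and 8.69 CPM at day 7 and 9.999, 11.2 and 11.5 CPM at day 0. Its log2 fold change of -0.32 ± 0.15 did not pass (adjusted p = 0.107). Nop14 (-0.01), Utp20 (-0.05), Utp3 (0.05) and Wdr43 (-0.10) lay close to no difference, while Rrp9 (0.23) and Rrp12 (0.30), an export factor in yeast, did not pass in spite of higher values.

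Among 11 factors of 60S assembly 1 rose, 2 fell and 8 did not pass, with a median of 0.24. Rrs1, which in yeast brings the small ribosomal RNA of the large subunit into the particle, had 16.9, 18.3 and 16.4 CPM at day 7 and 10.7, 8.64 and 9.34 CPM at day 0. No day 0 library came near the day 7 levels, and the log2 fold change was 0.85 ± 0.14 (adjusted p = 0.00114). Nip7, an RNA-binding factor of pre-60S particles, had 12.9, 9.67 and 8.69 CPM at day 7 and 15.2, 15.5 and 14.4 CPM at day 0. It was lower in every day 7 library, at -0.51 ± 0.17 (adjusted p = 0.0307), and the call was lost in 5 of 6 fits with a library left out (adjusted p up to 0.0912). Rrp1, a nucleolar factor of large subunit processing, had 38.0, 41.5 and 36.3 CPM at day 7 and 54.0, 53.1 and 54.9 CPM at day 0. The days stood well apart, and the log2 fold change was -0.48 ± 0.09 (adjusted p = 0.00303).

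Pes1, which with Bop1 and Wdr12 forms a complex needed for large subunit RNA maturation, had 30.8, 30.7 and 27.3 CPM at day 7 and 25.5, 25.2 and 24.5 CPM at day 0. All day 7 libraries were the higher ones, but Pes1 did not pass (0.24 ± 0.10, adjusted p = 0.0715). Without the third day 7 column it did, at 0.30 (adjusted p = 0.0215). Its partners did not pass: Bop1 was at -0.03 and Wdr12 at 0.34, which passed without the third day 7 column (0.46, adjusted p = 0.0282). The methyltransferase Nop2 (0.29, adjusted p = 0.0535), Noc2l (0.35, adjusted p = 0.0582) and the nucleolar GTPase Gnl3, nucleostemin (0.35, adjusted p = 0.0799), missed the threshold, and Nop2 and Noc2l passed with limma-voom. Noc2l also passed without the third day 7 column (0.44, adjusted p = 0.0139), and Nop2 without the second (adjusted p = 0.0458). Nop16 (0.16) and Noc3l (-0.03) did not pass.

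**Figure D3:**
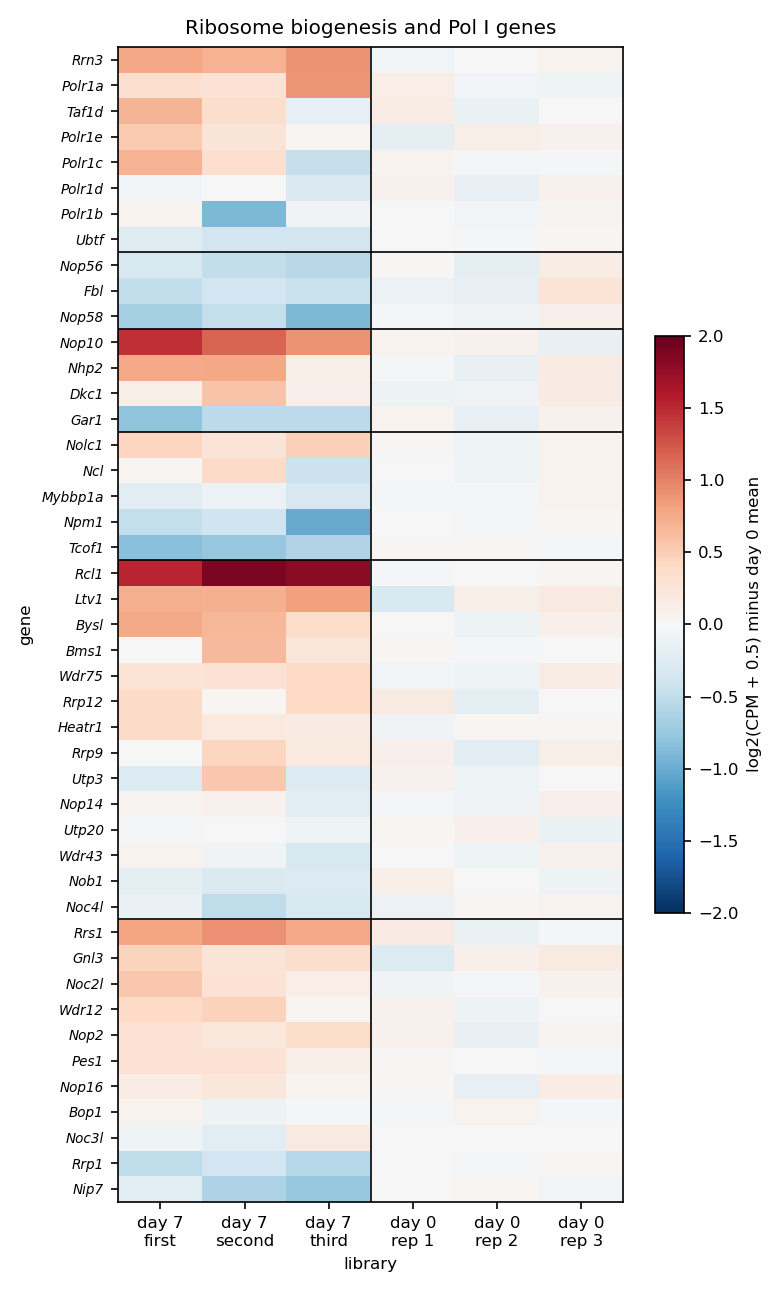
Level of each of the 45 genes (rows, by role) in each library (columns) as log2(CPM + 0.5) minus the mean of the 3 day 0 libraries, with red for higher and blue for lower. Rcl1 and Nop10 are red in all 3 day 7 columns, and the box C/D genes and Tcof1 are blue in all 3. Polr1c, Taf1d, Ncl, Nop14 and Noc3l differ in sign between the third day 7 column and the other day 7 columns. Of these, Noc3l is the one that is higher in the third column.

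Of the 19 genes that passed, 10 passed in all 6 fits with 1 library left out. Rrn3, Nop10, Rcl1, Bysl, Ltv1 and Rrs1 were higher at day 7 in each of these fits, and Nop58, Gar1, Tcof1 and Rrp1 were lower. In GRCm38, Nop10 spans chr2:112261926-112263269, Rcl1 chr19:29101375-29143929 and Rrs1 chr1:9545408-9547455, all on the plus strand, as is Nop58 at chr1:59684971-59719044. On the minus strand lie Bysl at chr17:47599331-47611492, Ltv1 at chr10:13178140-13193168, Gar1 at chr3:129824912-129831396 and Rrp1 at chr10:78400384-78413043. None of the 45 fold changes moved by more than 1.5-fold in any of these 6 fits. Genes on the opposite strand overlapped exons of 11 of the 45, by 5 bases for Nop56 to 361 for Bysl. On a scale that divides CPM by the length of the principal transcript, Npm1 was the most abundant of the 45 at 107 CPM per kilobase at day 7 and 163 at day 0, followed by Ubtf at 27.0 and 34.0. Rcl1 ranked 3 by this level at day 7 and 28 at day 0, with 22.1 and 6.41 CPM per kilobase, and Nop10 ranked 6 and 17. Ncl, at 21.6 and 21.1, rests on an annotated length of 8202 bases, and its place below Ubtf depends on that length. Before the division by length, Ncl had a mean of 177 CPM at day 7 and 173 at day 0, against 74.6 and 93.9 for Ubtf.

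The rest of the pathway was read from a list of 102 further ribosome biogenesis genes. Of these, 24 rose, 13 fell and 65 did not pass, with a median log2 fold change of 0.05 and 36.3% called. Among all genes 60.0% were called, of which 30.8% of all genes rose and 29.2% fell. Like the 45 genes, these 102 clustered near 0, with 4 called at 2-fold or more, against 33.7% of all genes. Of 12 other RNA polymerase I subunits and factors, 2 fell and 10 did not pass. Znrd1 had 6.01, 5.70 and 5.43 CPM at day 7 and 9.03, 10.004 and 9.18 CPM at day 0 (log2 fold change -0.71 ± 0.14, adjusted p = 0.00314), and Twistnb, also a subunit of the polymerase, stood at -0.67 ± 0.20 (adjusted p = 0.0201), a call lost without the first or the third day 0 replicate (adjusted p up to 0.0781). The 2 called subunits of the polymerase outside the 45 genes were thus lower at day 7, while the catalytic subunit Polr1a was higher. The Polr1a call was itself lost whenever a day 0 replicate was left out and with total-count scaling.

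Of 41 other small subunit factors, 11 rose, 5 fell and 25 did not pass. The box C/D protein Nhp2l1, which fell, was counted in this list. Nol6, a processome protein, had 47.3, 36.9 and 69.5 CPM at day 7 and 21.8, 22.6 and 20.9 CPM at day 0 (1.23 ± 0.22, adjusted p = 0.00179). The kinase Riok1 stood at the other end (-0.59 ± 0.15, adjusted p = 0.0106). Of 49 genes listed as other 60S factors, 13 rose, 6 fell and 30 did not pass. They ranged from Urb1 at 1.12 ± 0.20 (adjusted p = 0.00211) to Tex10 at -1.01 ± 0.13 (adjusted p = 0.000327). That list also held assembly factors of snoRNPs: Znhit3, Znhit6, Nufip1, Ruvbl1, Ruvbl2, Naf1 and Shq1. Among these, Znhit3 rose, Znhit6 and Ruvbl1 fell, and the others did not pass. With total-count scaling, 7 of the 102 rose and 16 fell.

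**Figure D4:**
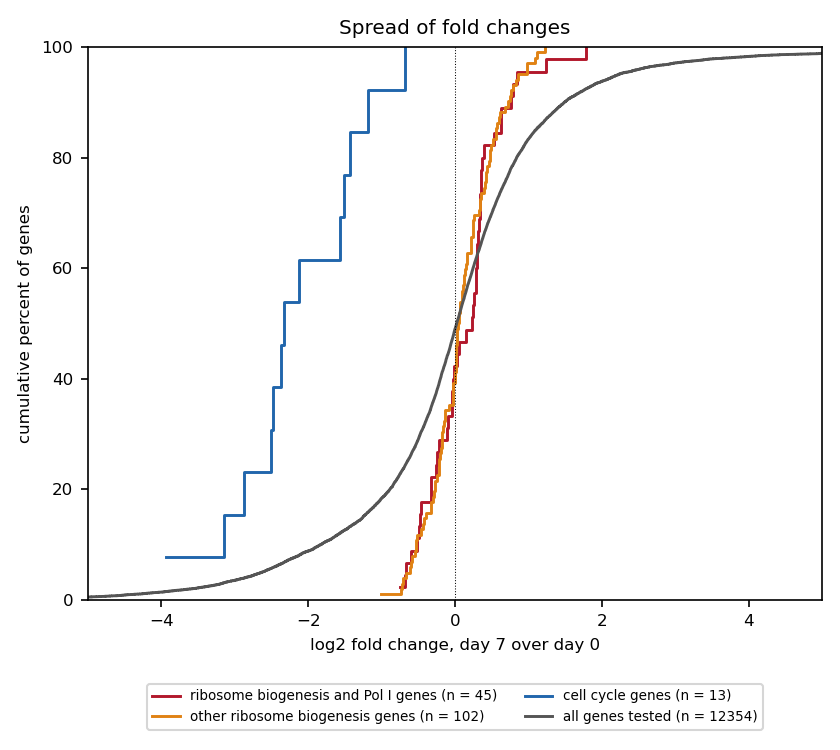
Cumulative percent of genes (y axis) by log2 fold change of day 7 over day 0 (x axis, shown from -5 to 5) for the 45 ribosome biogenesis and RNA polymerase I genes, 102 other ribosome biogenesis genes, 13 cell cycle genes and all 12354 genes tested. The ribosome biogenesis curves are steep around 0 (medians 0.23 and 0.05), the curve of all genes is wider and that of the cell cycle genes lies to the left (median -2.32).

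The cell cycle genes moved farther and in 1 direction. All 13 fell, against 9 of the 45 and 29.2% of all genes. Their median log2 fold change was -2.32, from Ccnd1 at -3.94 ± 0.38 (adjusted p = 8.56e-05) to Mcm7 at -0.68 ± 0.12 (adjusted p = 0.00201). Their part in the values of the 45 genes was not tested.

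Myc, the transcription factor, had 54.1, 25.6 and 37.1 CPM at day 7 and 20.3, 20.1 and 22.6 CPM at day 0. It was higher in each day 7 library, with a wide spread among them, at a log2 fold change of 0.90 ± 0.25 (adjusted p = 0.0146). The call was lost without the first or the second day 0 replicate (adjusted p up to 0.0561) and with total-count scaling (adjusted p = 0.0681). Of 11 genes of the Myc network listed, 9 could be tested, and 5 rose, 2 fell and 2 did not pass. Among all genes 30.8% rose and 29.2% fell. Mxi1, which competes with Myc for its partner Max, had 70.0, 82.8 and 74.1 CPM at day 7 and 14.4, 13.7 and 14.8 CPM at day 0 (2.40 ± 0.11, adjusted p = 4.90e-06). Mxd3, of the same family of Myc antagonists, had 1 count in each day 7 library and 17, 14 and 16 counts in the day 0 libraries (adjusted p = 0.000953), a ratio of 0.0723 with an exact 95% counting interval of 0.0144 to 0.225. Mycn had no counts and Mycl too few to test.

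The 2 noncoding RNAs of precursor processing that could be tested did not pass. The small nucleolar RNA U3 could not be matched to a row and is not reported. Rmrp, the RNA of the ribonuclease MRP, had 959, 2033 and 1194 CPM at day 7 and 1551, 959 and 1351 CPM at day 0 (0.12 ± 0.31, adjusted p = 0.766). Rpph1, the RNA of the related ribonuclease P, best known for cutting transfer RNA precursors, had 236, 396 and 294 CPM at day 7 and 336, 171 and 322 CPM at day 0 (0.16 ± 0.29, adjusted p = 0.657). Both overlapped between the days. Snord118 had 10, 4 and 0 counts in the day 7 libraries, against 3, 4 and 3 in those of day 0, and was not tested.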

How the data were processed

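Total RNA libraries came from a stranded Illumina kit and were read on a NovaSeq, per the labels' protocols. The submitters' processing notes name Salmon 1.9.0, STAR 2.7.10a and Trim Galore 0.6.7 and build GRCm38. Roles of these tools, annotation and strand setting of the counting are not given in the sources used. The authors deposited estimated counts per gene, a unit read from the values, of which 91.4% were whole within 0.01. Of the other columns in the deposited table, 10 were not used. All day 7 columns carry replicate number 1 and are told apart by their place in the table.

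Counts were rounded to whole numbers, filtered with filterByExpr (10 counts, 15 in total), scaled by TMM and tested between days with edgeR 4.0.16 (quasi-likelihood, R 4.3.3) over 12354 genes, adjusted by Benjamini-Hochberg at 0.05. The SE is the log2 fold change over the square root of F. The steps were tested on simulated data in which the changed genes differed by 2-fold or more. Smaller changes, such as most of those of the ribosome biogenesis genes, were not simulated. DESeq2 1.42.0, limma 3.58.1 (voom), other scalings and filters and each library left out were alternatives. Between 3969822 and 9459808 counts per library lay outside the 10 most abundant rows, so low genes rest on few counts. With 3 libraries a day a single exact permutation test could not go below 0.1.

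The members and gene lists were chosen with earlier results of these data known. Of 148 list entries 147 matched a row, 9 by an older symbol. Full values are given by rule for Polr1a, Polr1b, Ubtf, Rrn3, Fbl, Dkc1, Ncl, Npm1, Nolc1, Tcof1, Heatr1, Pes1, Nob1, and the highest and lowest gene of each role. The highest and lowest called gene of the other lists, Myc and each processing RNA found are named by rule. Nhp2, Ltv1, Bysl and Rrp1 were given full values after their values were seen, and other genes are named to account for all 45. Locations and lengths are from GENCODE M21. Genes on opposite strands overlap 13 of the 45, 11 in exons, where reads cannot be told apart if strand was not used.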

Additional observations from a re-analysis of the deposited data

How the results depend on the processing

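No paired analysis was possible because all 3 day 7 columns carry replicate number 1, so the planned replicate block was not run. Under the alternatives none of the 45 genes changed direction past the threshold. Nor did Znrd1, Twistnb, Nol6, Riok1, Urb1, Tex10, Mxi1, Mxd3, Myc, Rmrp or Rpph1. The other genes named here were not followed through the alternatives. With total-count scaling 4 of the 45 genes rose, as did 7 of the 102 other ribosome biogenesis genes and 2355 of all genes, and the median log2 fold change of the 45 was -0.0123. With a filter of 10 CPM in 3 libraries, which kept 35 of the 45, that median was 0.0229. Leaving out each library in turn gave 6 to 14 of the 45 that rose, 4 to 8 that fell, 13 to 29 of the 102 that rose and a median of 0.11 to 0.24. RLE and upper-quartile scaling, no filter, DESeq2, limma-voom and removal of the 10 most abundant rows gave 8 to 12 that rose and 9 that fell. Depth limits the low genes, such as Polr1e, Gar1 and Polr1b with under 10 CPM in every library. The cause of these shifts was not tested.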

Other observations

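Introns of ribosome biogenesis genes carry snoRNAs, the guides of the modification particles. GENCODE M21 placed 27 annotated snoRNA rows inside 7 of the 45 genes (Taf1d, Nop56, Nop58, Dkc1, Ncl, Wdr43 and Gnl3), and 4 of them had at least 10 counts over the 6 libraries. The most abundant was Gm25791 within Taf1d, at chr9:15314845-15314981 of GRCm38, with 322, 229 and 129 counts at day 7 and 267, 265 and 209 counts at day 0. It did not pass between the days (log2 fold change 0.05 ± 0.18, SE, edgeR adjusted p = 0.840), and its host Taf1d did not pass either (0.36 ± 0.23, adjusted p = 0.201). The next was Snord57 within Nop56, with 44 counts over all libraries. Gm25791 was chosen after its values were seen. Its 137 bases are printed because they carry the counts, and an ACA 3 bases from the end, where guides of the box H/ACA class carry this triplet, is in capitals.
Gm25791: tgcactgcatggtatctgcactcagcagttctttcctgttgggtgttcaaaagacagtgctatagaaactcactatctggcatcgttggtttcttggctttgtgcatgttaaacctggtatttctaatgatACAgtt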
